A study of Homo sapiens with 6 samples.

Results

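WNT1, WNT3A, WNT5A, WNT7B, WNT8B and WNT10B encode 6 of the human WNT ligands, secreted lipid-modified proteins that signal between neighbouring cells. They were followed here through 2 histone marks at their genomic windows. The windows were set on build hg19 at chromosome 12, 49368 to 49386 kb (WNT1) and 49352 to 49367 kb (WNT10B), and at chromosome 1, 228185 to 228259 kb (WNT3A). The others lay on chromosome 3 at 55490 to 55534 kb (WNT5A), chromosome 10 at 102213 to 102253 kb (WNT8B) and chromosome 22 at 46306 to 46383 kb (WNT7B). Every peak that overlapped a window by at least 1 bp was taken, which gave 162 of 142800 peaks. Of these, 13 of 46793 and 9 of 44022 were H3K4me3 peaks of Boost-Chir and Low-Chir cultures, and 81 of 26260 and 59 of 25725 were H3K27me3 peaks.

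The cells were neural progenitors derived from H9 (WA-09), an established human embryonic stem cell line, on day 11 of differentiation toward midbrain dopamine neurons. All cultures started with a Sonic hedgehog protein (SHH C25II), LDN, the TGF-β receptor inhibitor SB431542, the Rock inhibitor Y-27632 and 0.7 µM CHIR99021. CHIR99021 inhibits the kinase GSK3 and so switches on canonical WNT signalling inside the cell. Boost-Chir cultures were given 7.5 µM CHIR99021 from day 4 to day 10, whereas the labels do not state the concentration in Low-Chir cultures over those days. LDN, SB431542 and the hedgehog protein were withdrawn in between. From day 10 the medium held 3 µM CHIR99021 with BDNF, GDNF, TGFβ3, ascorbic acid and dibutyryl cAMP. Chromatin was immunoprecipitated once per mark and condition, so each value below comes from 1 library, no difference has a replicate check and no test was made. The comparison addresses how chromatin differs after a strong second phase of WNT pathway activation.

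WNT ligands bind Frizzled receptors. The canonical branch stabilises β-catenin, which acts with TCF and LEF factors on target genes, and other branches signal without β-catenin. In mice, Wnt1 marks the border of midbrain and hindbrain and is required to form the midbrain, and Wnt5a takes part in the development of midbrain dopamine neurons. H3K4me3 marks active and poised gene starts, H3K27me3 is laid down by Polycomb repressive complex 2, and both together are common at developmental genes in progenitors. Much of both marks lies over stretches rich in CpG dinucleotides.

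The 250 bases before the annotated start show how different these genes are in CpG content. RefSeq sequences on GRCh38.p14 were at hand for 4 of the 6 genes, WNT1, WNT3A, WNT5A (2 starts, 5908 bp apart) and WNT8B. They are printed 5′ to 3′ on the gene's strand with each CpG in capitals.
WNT1, chr12:48978072-48978321, plus strand: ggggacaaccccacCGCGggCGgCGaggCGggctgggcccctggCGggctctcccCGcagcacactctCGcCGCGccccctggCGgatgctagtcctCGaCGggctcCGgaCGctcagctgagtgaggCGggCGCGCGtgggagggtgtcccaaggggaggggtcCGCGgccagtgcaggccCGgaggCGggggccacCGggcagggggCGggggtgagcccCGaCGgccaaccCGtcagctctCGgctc
WNT3A, chr1:228006748-228006997, plus strand: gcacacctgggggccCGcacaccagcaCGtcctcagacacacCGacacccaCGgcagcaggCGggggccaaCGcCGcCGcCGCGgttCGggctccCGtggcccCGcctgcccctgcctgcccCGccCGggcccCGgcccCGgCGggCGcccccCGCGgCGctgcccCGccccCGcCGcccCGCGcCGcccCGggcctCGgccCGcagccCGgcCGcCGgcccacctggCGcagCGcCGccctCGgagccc
WNT5A, upstream start, chr3:55487307-55487556, minus strand: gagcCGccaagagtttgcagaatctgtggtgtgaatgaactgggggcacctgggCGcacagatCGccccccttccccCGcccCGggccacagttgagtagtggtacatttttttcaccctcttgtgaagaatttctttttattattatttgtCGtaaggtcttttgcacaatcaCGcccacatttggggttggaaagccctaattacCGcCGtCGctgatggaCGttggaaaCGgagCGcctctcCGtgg
WNT5A, downstream start, chr3:55481399-55481648, minus strand: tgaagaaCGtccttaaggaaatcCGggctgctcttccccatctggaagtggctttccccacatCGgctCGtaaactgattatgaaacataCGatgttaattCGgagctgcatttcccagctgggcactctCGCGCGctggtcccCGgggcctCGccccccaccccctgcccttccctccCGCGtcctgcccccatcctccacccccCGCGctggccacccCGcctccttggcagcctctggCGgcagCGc
WNT8B, chr10:100462759-100463008, plus strand: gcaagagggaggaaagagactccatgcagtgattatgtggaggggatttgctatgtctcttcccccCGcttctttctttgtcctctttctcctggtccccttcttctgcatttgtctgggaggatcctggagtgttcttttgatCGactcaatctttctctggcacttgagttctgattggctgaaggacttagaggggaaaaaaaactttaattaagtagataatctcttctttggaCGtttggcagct

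WNT3A held 38 CpGs in its 250 bases and WNT1 held 29, against a median of 11 over 35116 RefSeq promoters. The upstream start of WNT5A held 14 and the downstream start 18. WNT8B held only 3, and 22.9% of all promoters held fewer. The core motif of TCF and LEF factors, TCAAAG on either strand, was in 0 of these 5 stretches and in 11.2% of all promoters of that length. Because these starts are given on GRCh38.p14 and the peaks on hg19, no peak was placed on a start, exon or intron.

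**Figure D1:**
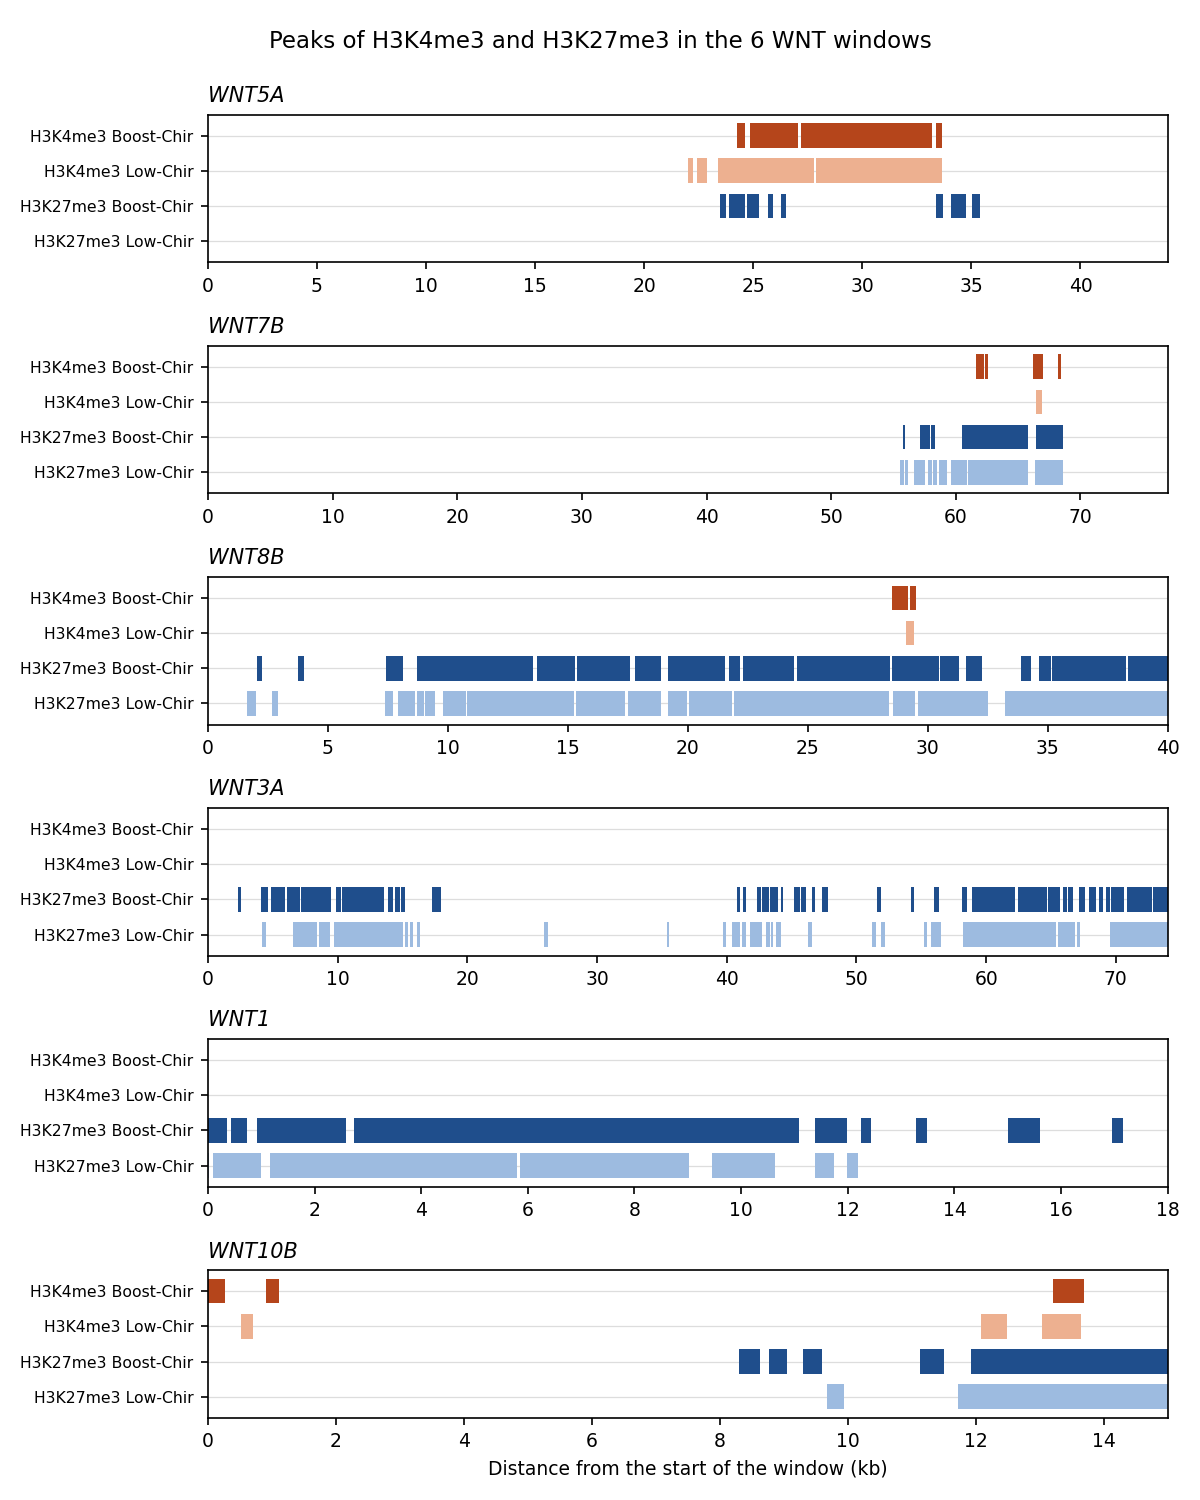
Peaks of each list along the 6 windows, by distance in kb from the window's start, with Boost-Chir above Low-Chir for each mark; each block is 1 peak cut at the window's edge, and each lane is 1 library. WNT5A is the window under broad H3K4me3, with H3K27me3 in Boost-Chir alone, while WNT1 and WNT3A carry H3K27me3 and no H3K4me3 peak.

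WNT5A, a ligand best known for signalling without β-catenin, was the window under a broad H3K4me3 domain, and H3K27me3 was found there in Boost-Chir alone. H3K4me3 covered 8887 bp under 4 peaks in Boost-Chir and 10895 bp under 4 peaks in Low-Chir. H3K27me3 covered 3383 bp under 8 peaks in Boost-Chir and 0 bp in Low-Chir, where no peak lay within 10 kb of the window either. The 2 H3K27me3 runs of Boost-Chir, on chromosome 3 at 55513477 to 55516510 and at 55523369 to 55525393, thus had no counterpart. They sat at the 2 ends of the H3K4me3 domain, whose ends were 55514263 and 55523668 in Boost-Chir and 55512006 and 55523667 in Low-Chir.

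Most of these H3K27me3 peaks were weak to middling. Their fold enrichments, the authors' values over the local background estimate, ranged from 3.26 to 5.50, where the median of the Boost-Chir list was 4.20 and 85.8% of the list lay below 5.50. The summit with the highest fold stood on 26 reads (exact 95% Poisson interval 17.0 to 38.1), the lowest count being 13 reads. The interval covers counting error only. With the stronger 50% of each list the H3K27me3 length was 1928 bp in Boost-Chir. The 0 bp of Low-Chir could not change, because this setting only removes peaks. Of the 3383 bp, 1519 bp lay under Boost-Chir H3K4me3 peaks and 2348 bp under the H3K4me3 peaks of Low-Chir.

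H3K4me3 at WNT5A was kept over most of its length. Bases under H3K4me3 in both conditions came to 8799, which were 99.0% of the Boost-Chir and 80.8% of the Low-Chir bases. Low-Chir alone had 2096 bp, and 830 bp of these were under H3K27me3 in Boost-Chir. The ratio of Boost-Chir to Low-Chir length was 0.816, where the median over 14475 H3K4me3 loci found in both lists was 1.28 and 7.83% of them had a lower ratio. A locus here is a run of peaks of both conditions no more than 3 kb apart.

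The strength of H3K4me3 at WNT5A depended on how it was read. The highest fold was 9.53 in Boost-Chir, at a peak of 2187 bp with 34 reads (23.5 to 47.5), and 13.5 in Low-Chir. The longest peak had a fold of 7.38 in Boost-Chir (6039 bp, summit at 55520808) and 13.5 in Low-Chir (5782 bp, summit at 55520018). Reads at those summits, recovered from fold and p-value, numbered 53 (39.7 to 69.3) in Boost-Chir and 43 (31.1 to 57.9) in Low-Chir. The local background under them was 6.31 reads in Boost-Chir and 2.26 in Low-Chir, against genome-wide backgrounds of 2.67 and 2.21 reads. In units of the genome-wide background, the summit stood 17.5 above its local background in Boost-Chir and 18.4 in Low-Chir. At the longest peaks the lower fold in Boost-Chir thus went with a higher local background, and the read intervals overlap. The Boost-Chir peak of 9.53-fold had a local background of 2.67 reads, that of the whole genome, and stood 11.7 above it per unit of depth. The Low-Chir peak that spanned it had a fold of 9.79 on 32 reads (21.9 to 45.2) and stood 13.4 above background per unit of depth.

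**Figure D2:**
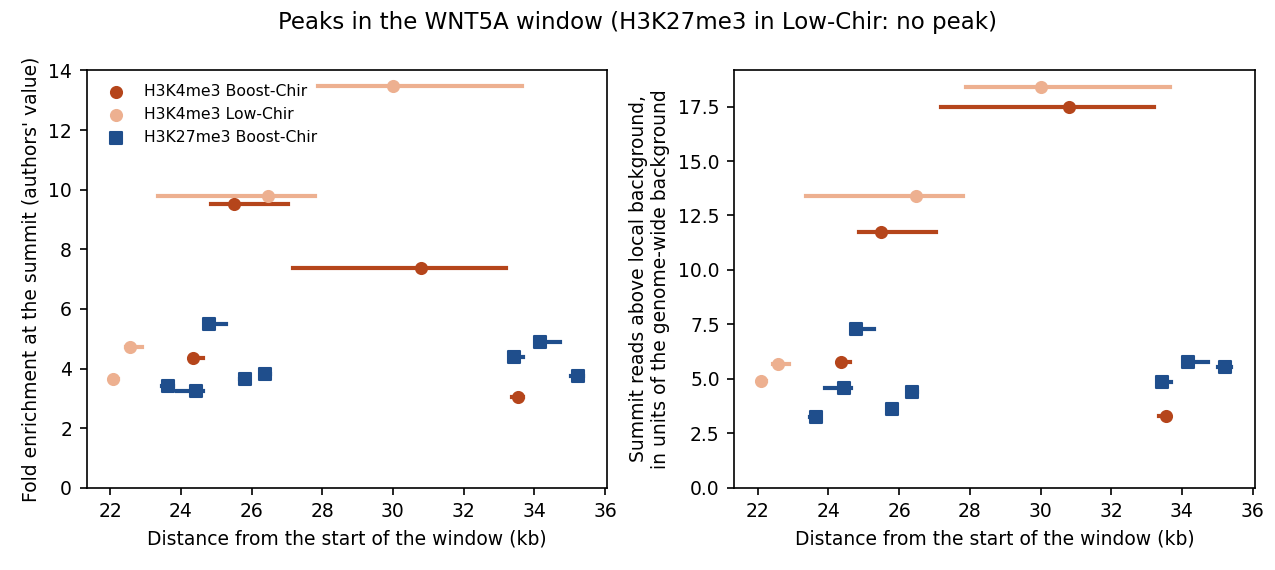
Peaks in the WNT5A window, with the authors' fold enrichment at the summit (left) and the summit reads above local background in units of the genome-wide background (right), by distance in kb from the window's start. Bars give the extent of a peak and points its summit; the longest H3K4me3 peaks are 7.38 and 13.5 by fold and 17.5 and 18.4 per unit of depth in Boost-Chir and Low-Chir, and the 8 H3K27me3 peaks of Boost-Chir lie at both ends of the domain.

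The pattern at WNT5A can be set beside other broad H3K4me3 loci, as a description. Of 81 loci with at least 10 kb under H3K4me3 peaks and no H3K27me3 in Low-Chir, 1 (1.23%) held at least 1 kb of H3K27me3 in Boost-Chir, and that locus was WNT5A, with 2349 bp. Over all 13032 H3K4me3 loci free of H3K27me3 in Low-Chir the share was 0.299%. The reverse, at least 1 kb in Low-Chir and none in Boost-Chir, was seen at 0.509% of 13173 loci. The limits of 10 kb and 1 kb were set with the WNT5A values known, so that WNT5A passes them says nothing. With 500 bp in place of 1 kb the number was 3 of 81, with 1 bp it was 4 of 81, and with 8 kb in place of 10 kb it was 5 of 183.

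WNT7B, a canonical ligand that guides brain blood vessel growth in mice, had small H3K4me3 peaks within an H3K27me3 domain. H3K4me3 covered 1883 bp under 4 peaks in Boost-Chir and 523 bp under 1 peak in Low-Chir, and the 523 bp were all kept. A pair of Boost-Chir peaks on chromosome 22 at 46367632 to 46368561 formed a locus with 0 bp in Low-Chir, and a single peak at 46374174 to 46374407 was also new. The top fold was 4.86 in Boost-Chir and 4.84 in Low-Chir, on 17 reads (9.90 to 27.2) and 15 reads (8.40 to 24.7), while per unit of depth the summit stood 5.35 above background in Boost-Chir and 5.74 in Low-Chir. Such folds are ordinary, since 55.5% of the Boost-Chir and 46.6% of the Low-Chir list lay below them. These summits lay in different loci. At the locus with peaks in both conditions, 46372209 to 46374407, the top fold was 4.63 in Boost-Chir and 4.84 in Low-Chir. Per unit of depth its highest summit stood 4.99 above background in Boost-Chir and 5.74 in Low-Chir.

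H3K27me3 at WNT7B covered 8844 bp under 5 peaks in Boost-Chir and 11055 bp under 9 peaks in Low-Chir. The ratio of these lengths lay among common values, with 37.5% of the H3K27me3 loci found in both lists having a lower one. The main block was a peak of 5297 bp at 7.04-fold in Boost-Chir and of 4859 bp at 6.53-fold in Low-Chir. Its summit had 35 reads (24.4 to 48.7) in Boost-Chir and 42 reads (30.3 to 56.8) in Low-Chir, and per unit of depth it stood 10.2 above background in Boost-Chir and 11.7 in Low-Chir. Fold and depth-adjusted value thus ran in opposite directions, and the read intervals overlap. The difference fell at the edge of lower coordinates, where Boost-Chir had peaks of 200, 799 and 324 bp between 46361734 and 46364354. Low-Chir had 7 peaks of 268 to 1236 bp between 46361513 and 46366862. Of the 1360 bp of H3K4me3 in Boost-Chir alone, 1167 bp lay under H3K27me3 of Boost-Chir and 1195 bp under H3K27me3 of Low-Chir.

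WNT8B, a ligand of the developing forebrain, was under one of the longest H3K27me3 domains of the lists in both conditions. H3K27me3 covered 28.7 kb (71.6% of the window, 18 peaks) in Boost-Chir and 30.8 kb (76.9%, 16 peaks) in Low-Chir. The top fold was 8.63 in Boost-Chir and 8.78 in Low-Chir, on 34 reads (23.5 to 47.5) and 36 reads (25.2 to 49.8). Per unit of depth those summits stood 10.2 above background in Boost-Chir and 10.5 in Low-Chir, the same direction. The highest values per unit of depth, 11.2 in Boost-Chir and 10.8 in Low-Chir, were at other peaks of the window. The whole locus, chromosome 10 at 102220375 to 102283397, ran past the window on the side of SEC31B, the next coding gene in RefSeq order. SEC31B was not placed on hg19, so the window and the locus may include part of that gene. The locus held 46.6 kb in Boost-Chir and 51.3 kb in Low-Chir and was longer than 99.7% of all H3K27me3 loci. The longest single peak that overlapped the window was 4855 bp in Boost-Chir and 14561 bp in Low-Chir. The part of that Low-Chir peak within the window was held by 4 separate peaks in Boost-Chir.

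H3K4me3 at WNT8B was faint and lay inside that domain. It covered 924 bp under 2 peaks in Boost-Chir and 355 bp under 1 peak in Low-Chir, all of it under H3K27me3 in each condition. The top fold was 5.17 on 18 reads (10.7 to 28.4) in Boost-Chir and 4.05 on 12 reads (6.20 to 21.0) in Low-Chir. The length ratio of 2.60 was exceeded by few loci, as 97.0% had a lower one. That ranking takes loci of all lengths, and only 20.9% of H3K4me3 loci were shorter than this one. The read intervals at the summits overlap, but they do not measure covered length.

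WNT1, the ligand of the midbrain and hindbrain border, had no H3K4me3 peak in either condition and was under strong H3K27me3 in both. H3K27me3 covered 12485 bp (69.4% of the window, 9 peaks) in Boost-Chir and 10484 bp (58.2%, 7 peaks) in Low-Chir. Bases in both conditions made up 79.0% of the Boost-Chir and 94.1% of the Low-Chir length. A single Boost-Chir peak of 8331 bp at 49370748 to 49379078, 8.96-fold on 36 reads (25.2 to 49.8), overlapped 3 peaks of Low-Chir. The strongest of the 3 was 4633 bp long and 10.0-fold on 43 reads (31.1 to 57.9). Boost-Chir also had 3 small peaks between 49381273 and 49385167, at 3.52-fold to 4.43-fold, where Low-Chir had none.

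WNT10B, a canonical ligand that restrains fat cell formation and promotes bone in mice, lies next to WNT1 and shared its H3K27me3 locus. That locus, chromosome 12 at 49360293 to 49394985, held 23.3 kb in Boost-Chir and 20.9 kb in Low-Chir, a ratio of 1.12. Within the WNT10B window H3K27me3 covered 4360 bp under 5 peaks in Boost-Chir and 3528 bp under 2 peaks in Low-Chir. The peak that crosses from this window into that of WNT1 had 9.37-fold enrichment on 37 reads (26.1 to 51.0) in Boost-Chir and 8.07-fold on 33 reads (22.7 to 46.3) in Low-Chir. It was counted in both windows.

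H3K4me3 in the WNT10B window came to 961 bp in Boost-Chir and 1221 bp in Low-Chir. Part of it belonged to a locus mainly outside the window, toward ARF3, the neighbouring coding gene in RefSeq order. The Boost-Chir peak of 12.1-fold ended at 49352272, inside the window, but most of its 4102 bp and its summit lay outside. That outer locus held 5269 bp in Boost-Chir and 3446 bp in Low-Chir. Its highest summit above background per unit of depth was 16.8 in both. The locus inside, 49364080 to 49365693, was under H3K27me3 over its full 1614 bp in both conditions. It held 486 bp of H3K4me3 at 5.91-fold in Boost-Chir, and 2 peaks of 406 and 615 bp at 4.67-fold and 3.52-fold in Low-Chir. Its length ratio was 0.476, and 1.62% of loci had a lower one, but both Low-Chir peaks were absent from the stronger 50% of their list. The highest summit above background per unit of depth was 6.84 in Boost-Chir and 6.48 in Low-Chir.

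WNT3A, a canonical ligand made along the dorsal midline of the mouse embryo, had no H3K4me3 peak in either condition and an H3K27me3 length that was nearly equal between them. H3K27me3 covered 27981 bp (37.8% of the window) in Boost-Chir and 27631 bp (37.3%) in Low-Chir. It was split into 37 peaks in Boost-Chir and 26 in Low-Chir, the longest of 3307 bp in Boost-Chir and 7170 bp in Low-Chir. The top fold was 7.15 on 28 reads (18.6 to 40.5) in Boost-Chir and 9.73 on 40 reads (28.6 to 54.5) in Low-Chir. These intervals overlap. At the 2 longest loci, 228187321 to 228202934 and 228236182 to 228262191, the ratio of summit enrichment per unit of depth was 0.726 and 0.757. Over all H3K27me3 loci found in both lists the median ratio was 0.920, and 11.5% and 15.8% had a lower one. At the third locus with peaks in both conditions, 228224697 to 228232788, the ratio was 1.04. The median fold of the peaks in the window was 4.44 in Boost-Chir and 4.43 in Low-Chir. Weighted by peak length in the window, the mean fold was 5.46 in Boost-Chir and 7.44 in Low-Chir.

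**Figure D3:**
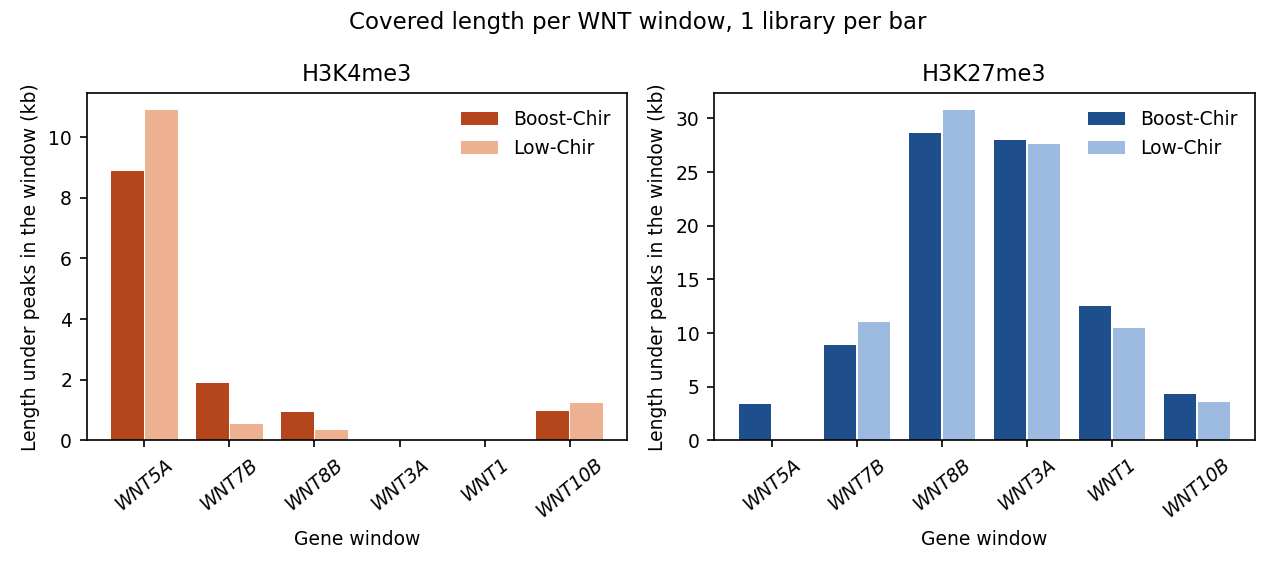
Length under peaks in each window in kb for H3K4me3 (left) and H3K27me3 (right), with Boost-Chir left of Low-Chir and 1 library per bar, so no error bar can be drawn. H3K4me3 is longest at WNT5A (8887 and 10895 bp), and H3K27me3 is longest at WNT8B and WNT3A, each between 27.6 and 30.8 kb in both conditions.

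Across the 6 windows the changes were few. A window was called longer or shorter in a mark when the covered length differed by at least 2-fold and 500 bp. H3K4me3 was called longer in Boost-Chir at WNT7B and WNT8B, where 9.29% of genome tiles of 20 kb with H3K4me3 passed the same rule. H3K27me3 was called longer at WNT5A, against 9.69% of tiles with H3K27me3. No window was called shorter in either mark, where 1.66% of H3K4me3 tiles and 14.8% of H3K27me3 tiles were. The windows differ in length from the tiles, so these shares are only a guide.

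By loci, 2 of 6 H3K4me3 loci in the windows were longer in Boost-Chir (WNT7B and WNT8B) and 1 was shorter (WNT10B), where 7.74% and 1.72% of 16580 loci were. The call at WNT10B did not hold with the stronger 50% of each list, where its locus held 486 bp in Boost-Chir and 0 bp in Low-Chir. Of 11 H3K27me3 loci, 2 were longer, both at WNT5A, and 0 shorter, where 9.38% and 14% of 7868 loci were. With so few loci these counts say little beyond the loci themselves. In total, the windows held 12655 bp of H3K4me3 in Boost-Chir and 12994 bp in Low-Chir, a ratio of 0.974 set mostly by WNT5A, while over the whole lists the ratio was 1.29. For H3K27me3 the totals were 85.7 kb in Boost-Chir and 83.5 kb in Low-Chir, a ratio of 1.03, against 0.901 over the whole lists. Depth, judged by the genome-wide background, had a ratio of Boost-Chir to Low-Chir of 1.21 for H3K4me3 and 0.971 for H3K27me3, and the part of depth in these differences was not tested.

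**Figure D4:**
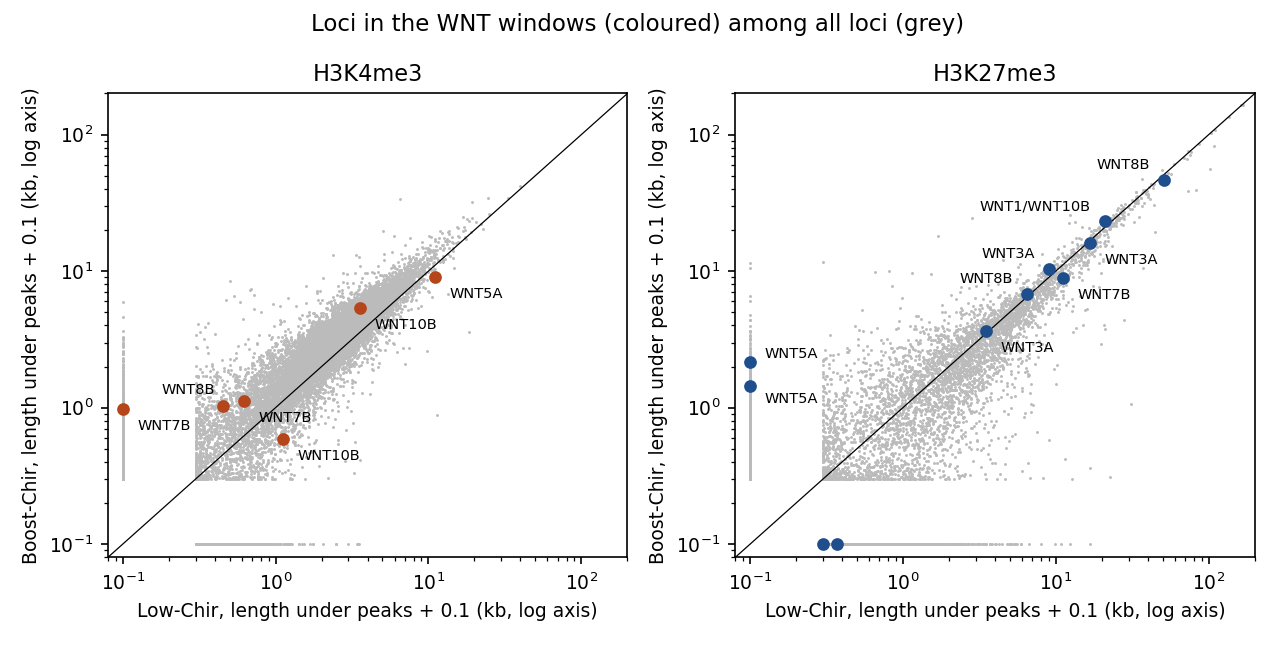
Length under peaks of every locus in Boost-Chir (vertical) and Low-Chir (horizontal), in kb plus 0.1 on log axes, with all loci in grey and those in the WNT windows in colour; the line marks equal length. The 2 WNT5A loci of H3K27me3 stand at 0 kb in Low-Chir, the WNT5A locus of H3K4me3 lies below the line, and the long H3K27me3 loci of WNT8B, WNT1 with WNT10B, WNT3A and WNT7B lie close to it.

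Bases under both marks were found at 4 of the 6 genes in Boost-Chir and at 3 in Low-Chir. Over the whole genome, 13173 of 16580 H3K4me3 loci had no H3K27me3 in Boost-Chir and 13032 had none in Low-Chir. Loci are not windows and include the gaps between their peaks, so these numbers are only a guide. Under both marks WNT5A had 1519 bp in Boost-Chir and 0 bp in Low-Chir. WNT7B had 1690 bp in Boost-Chir and 523 bp in Low-Chir, and WNT8B had 924 bp in Boost-Chir and 355 bp in Low-Chir. WNT10B had 486 bp in Boost-Chir and 1021 bp in Low-Chir, a direction that turned with the stronger 50% of each list, to 486 bp in Boost-Chir and 0 bp in Low-Chir. Under that setting WNT5A had 428 bp in Boost-Chir, while its 0 bp in Low-Chir could not change. At WNT5A these bases were 17.1% of the Boost-Chir H3K4me3 length, at WNT7B 89.8% and at WNT8B 100%. The marks were measured in separate immunoprecipitations of bulk cultures. More cells that carry a mark and more of the mark per cell cannot be told apart, nor can 2 cell states from both marks on the same chromosomes.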

How the data were processed

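The 6 samples were grouped by mark and condition from their titles. The 4 antibody libraries each had 1 deposited peak list, and nothing was read from the 2 inputs. Tools named are cutadapt 1.6, BWA 0.7.12 and Picard, per the submitters' processing notes, which give hg19 as the genome build. Which program called the peaks, and at which cut-off, is not given in the sources used here. Each list pairs 1 antibody library with the matching input, per the peak names in the deposited files. For every peak the authors' deposited list holds a fold enrichment (a ratio), 2 values on a −log10 scale (for p and for q), a summit and a score. The score, equal to 10 times −log10 q cut to a whole number, was not used.

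The gene windows and lists were chosen with earlier results of these data known. Covered length was the union of peaks cut to the window. Positions are counted from 1. Summit reads were solved from fold and a Poisson p. Fold was taken as (reads + 1) over (background + 1), with reads and background first multiplied by a step. The step was 1 for both H3K4me3 lists. For H3K27me3 it was fitted to each list, as 0.977 in Boost-Chir and 0.909 in Low-Chir. For 100% of peaks the solution gave back the deposited −log10 value to within 0.001. The lowest background in a list served as its depth. It was 2.67 and 2.21 reads for H3K4me3 in Boost-Chir and Low-Chir, and 3.03 and 3.12 for H3K27me3. Median summit reads per list ranged from 17 to 20. All 6 genes are named, with the peaks of highest fold, the longest loci and those of largest change. No annotation of hg19 was used, so the other WNT genes and the markers of neural progenitors or pluripotent cells listed for this work were not analysed here, and the identity of the cells was not checked. Calculations used Python 3.11.15, numpy 2.4.6, scipy 1.17.1 and matplotlib 3.10.9, and were tested on simulated data.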

Additional observations from a re-analysis of the deposited data

How the results depend on the processing

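Covered length was recomputed with the stronger 50% of each list by −log10 q, the same number of peaks in both lists, whole peaks, windows widened by 10 kb, peaks joined within 3 kb, and, chosen after seeing the data, peaks with their summit in the window. H3K4me3 at WNT1 and WNT3A had no peak in the windows, so only widened windows could change those values. Of the 12 pairs of window and mark, 3 were called longer and 0 shorter with all peaks, so most had no call to lose. Of 72 values per window and mark, 70 kept the call of the report and 2 gained one, both H3K4me3 at WNT10B. There the length was 758 bp in Boost-Chir and 0 bp in Low-Chir with the stronger 50%, and 4791 bp in Boost-Chir and 1221 bp in Low-Chir with whole peaks. Both Boost-Chir lengths include bases of the 4102 bp peak that enters the window from the side of ARF3. The locus of that peak had no call, and its highest summit per unit of depth was 16.8 in both conditions. The small differences at WNT10B, WNT3A and WNT8B had the other sign in 6 of these values, and 4 of the 6 stayed under the limit for a call. More peaks were counted in Boost-Chir at 7 of 12 pairs of window and mark, and at 2 once peaks within 3 kb were joined. At 1.5-fold in place of 2-fold, 22.7% of all H3K4me3 loci were longer and 2.61% shorter in Boost-Chir, and with the stronger 50% of each list 14.1% were longer. At WNT10B the bases under both marks and the length of the inner H3K4me3 locus each differed by -535 bp (Boost-Chir minus Low-Chir) with all peaks and by 486 bp with the stronger 50%, an alternative chosen for the locus after seeing the data. The sign turned because both Low-Chir peaks, at a −log10 q of 5.65 and 4.77, fell under their list's median of 7.32. The Boost-Chir peak, at 10.4, lay above its list's median of 6.30. Why the peaks differ in q was not tested. With the stronger 50%, the second H3K4me3 locus of WNT7B (1010 bp in Boost-Chir and 0 bp in Low-Chir) gained a call. Its Boost-Chir peaks had a −log10 q of 6.30, exactly the median at which their list was cut. The Low-Chir peak, at 6.23, fell under the higher median of its own list, 7.32. Its fold was 4.84, against 4.63 for the Boost-Chir peaks, so this call rests on unequal cuts. No paired analysis was possible because there was a single library for every mark in either condition. A list names only what passed its threshold, so a stretch without a peak may still carry the mark at a lower level.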

Other observations

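The stretches just outside the windows carried marks of their own. In the 10 kb before the WNT10B window, toward ARF3, H3K4me3 covered 4794 bp in Boost-Chir and 3246 bp in Low-Chir, with no H3K27me3 in either. In the 10 kb after the WNT1 window, toward DDN, H3K27me3 covered 5430 bp in Boost-Chir and 5855 bp in Low-Chir, beside H3K4me3 of 307 bp in Boost-Chir and 443 bp in Low-Chir. The 10 kb after the WNT8B window held 8696 bp of H3K27me3 in Boost-Chir and 9848 bp in Low-Chir. Around WNT5A and WNT7B the 10 kb on either side had no peak of either mark in any of the 4 lists.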
